A study of Mus musculus with 30 samples.

Results

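The genes described here are 41 markers of the blood vessels of the brain, measured in the hippocampus of mice that lack TIMP2, a secreted inhibitor of matrix metalloproteinases, and of WT mice. They were taken from the count table by name: 30 genes of endothelial cells and of the blood-brain barrier, 8 genes of pericytes and 3 genes of vascular smooth muscle. All 41 were found among the 49315 genes of the table. The study sequenced poly(A)-selected RNA from the hippocampi of 30 C57BL/6J mice, 13 TIMP2 KO (6 males and 7 females) and 17 WT (10 males and 7 females). The KO is a constitutive deletion, so every cell of the mouse carries it from conception, and the controls were littermates. The age of the sequenced mice was not given for this experiment in the sources used here. The question addressed is whether the vascular genes of the hippocampus differ between TIMP2 KO and WT mice, and how they vary together from mouse to mouse.

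Capillaries of the brain are lined by endothelial cells that are sealed to each other by tight junctions. These cells carry transporters that bring glucose, amino acids, iron and lipids into the brain and pump foreign compounds back into the blood. Pericytes sit on the outer face of the capillaries within the same basement membrane, and smooth muscle cells wrap the arteries and arterioles. In RNA from a whole tissue, fewer cells of a type and less RNA per cell cannot be told apart, and this holds for every level below.

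The sequences just upstream of 3 members are shown because the results turn on these genes: Slco1a4 and Tfrc had the smallest p-values between KO and WT, and Cldn5 is the main claudin of the barrier. Each is the 250 bases before a RefSeq transcription start in GRCm38.p6, written 5′ to 3′ on the strand of the gene, and none of the 3 overlaps an exon of GENCODE release M21. Capitals mark matches to 2 motifs searched on both strands, the core AGGAAG bound by ETS factors such as Erg, and the CArG box bound by serum response factor, in which 6 A or T bases lie between CC and GG, with up to 1 mismatch allowed. Slco1a4 lies on the minus strand (chr6:141856221-141856470), Tfrc on the plus strand (chr16:32608646-32608895, the first of 2 annotated starts) and Cldn5 on the plus strand (chr16:18776597-18776846).
Slco1a4: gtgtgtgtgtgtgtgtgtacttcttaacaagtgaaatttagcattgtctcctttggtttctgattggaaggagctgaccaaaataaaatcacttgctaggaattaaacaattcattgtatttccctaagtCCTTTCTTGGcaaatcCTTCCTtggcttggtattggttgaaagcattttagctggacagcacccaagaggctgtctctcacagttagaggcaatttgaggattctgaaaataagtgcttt
Tfrc: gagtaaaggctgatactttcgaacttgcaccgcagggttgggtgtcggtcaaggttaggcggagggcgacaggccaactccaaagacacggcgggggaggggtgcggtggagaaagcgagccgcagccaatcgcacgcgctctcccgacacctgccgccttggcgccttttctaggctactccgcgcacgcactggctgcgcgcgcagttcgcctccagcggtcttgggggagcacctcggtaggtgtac
Cldn5: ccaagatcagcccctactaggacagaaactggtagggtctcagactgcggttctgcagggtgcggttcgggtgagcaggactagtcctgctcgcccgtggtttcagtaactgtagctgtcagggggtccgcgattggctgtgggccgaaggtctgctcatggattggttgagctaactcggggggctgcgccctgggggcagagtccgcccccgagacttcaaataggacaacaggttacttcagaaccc

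The Slco1a4 sequence holds CTTCCT, the ETS core read from the other strand, between 104 and 99 bases before the start, and a CArG-like CCTTTCTTGG between 120 and 111 bases before it. The windows of Tfrc and Cldn5 shown here hold neither motif, which says only that these letters are not in these windows. The window of the second Tfrc start, not shown, holds the ETS core at 2 places, AGGAAG between 219 and 214 and CTTCCT between 92 and 87 bases before that start. The promoter table held 27 of the 41 members with 34 starts in all. The ETS core was in 14 of these 34 windows (41.2%) and in 29.5% of all 32851 windows of the same length. A CArG-like sequence was in 8 of the 34 windows (23.5%) and in 18.6% of all windows. The Acta2 window, from chromosome 19, held 2 of them, CCCTATATGG and CCTTGTTTGG.

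Total counts lay between 18345517 (mouse 30) and 41081083 (mouse 11) per KO mouse and between 19445246 and 32098386 per WT mouse. Mice 30 and 11 thus had the lowest and the highest total of all 30 libraries. Timp2 itself was lower in every KO mouse than in every WT mouse, with 130.0 to 170.9 against 256.4 to 380.4 CPM (counts scaled to a common library size with TMM factors), so the labels and the targeted gene go together. Reads remained on Timp2 in the KO. Counts were taken over the whole gene, and the part of the gene they fell on was not analysed here. The neuronal markers of the check list were strong in every mouse, with a summed level from 10661.8 to 12912.6 CPM. Some libraries stood apart in genes that matter here. Mouse 11, a KO female, had a summed level of 1144.83 CPM over 11 choroid plexus markers, against 126.0 to 179.7 CPM in the WT mice. Mouse 18 (KO male) and mouse 24 (WT male) differed from the rest in several endothelial genes, and mouse 30 (KO female) was the lowest KO mouse in many of them. Tests between groups were repeated without mouse 11, without mouse 30 and without mice 18 and 24. Calls of members that were lost or gained are given beside each result. For genes of the other lists, calls that were lost are given.

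Every member was well above the limit of detection. The fewest counts in any mouse for any member were 23, for Higd1b, and the most were 18071, for Bsg. Scaled by exon length, Bsg, which encodes the transporter partner basigin and is made by many cell types, was highest with a mean of 229.8 CPM per kb over the 30 mice. Next came Cldn5 (claudin-5) at 27.4, Itm2a at 25.9, Vtn (vitronectin, in brain made by pericytes) at 24.3, Rgs5 (a regulator of G-protein signaling in pericytes) at 23.4, and Slc2a1 (the glucose transporter GLUT1) at 19.3 CPM per kb. The lowest were Anpep, a peptidase of the pericyte surface, at 0.465, Vwf (von Willebrand factor) at 0.840 and Emcn (endomucin, a marker of veins and capillaries) at 0.859 CPM per kb.

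Between TIMP2 KO and WT, 2 of the 41 members passed an unadjusted p under 0.05 in edgeR's quasi-likelihood test, both lower in KO, while 4.88% of all 16486 genes tested passed it (2.38% of the genes higher and 2.5% lower in KO). No member had an adjusted p under 0.05, against 0.0425% of all genes, and the lowest adjusted p of a member was 0.974. By DESeq2 the unadjusted count was also 2, with 0 after adjustment. The share of members called was thus close to the background. In all, 15 members had a higher and 26 a lower mean estimate in KO, with a median log2 fold change of -0.012 beside 0.00011 over all genes tested. For no member did the levels of the KO and WT mice separate (0.0121% of all genes separated).

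The intervals were narrow. For all 30 endothelial and barrier members, and for 39 of the 41 members, the 95% interval of the KO over WT change stayed within 20% in either direction. Acta2 (-29.2% to 21.5%) and Myh11 (-20.1% to 10.9%) were the exceptions.

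**Figure D1:**
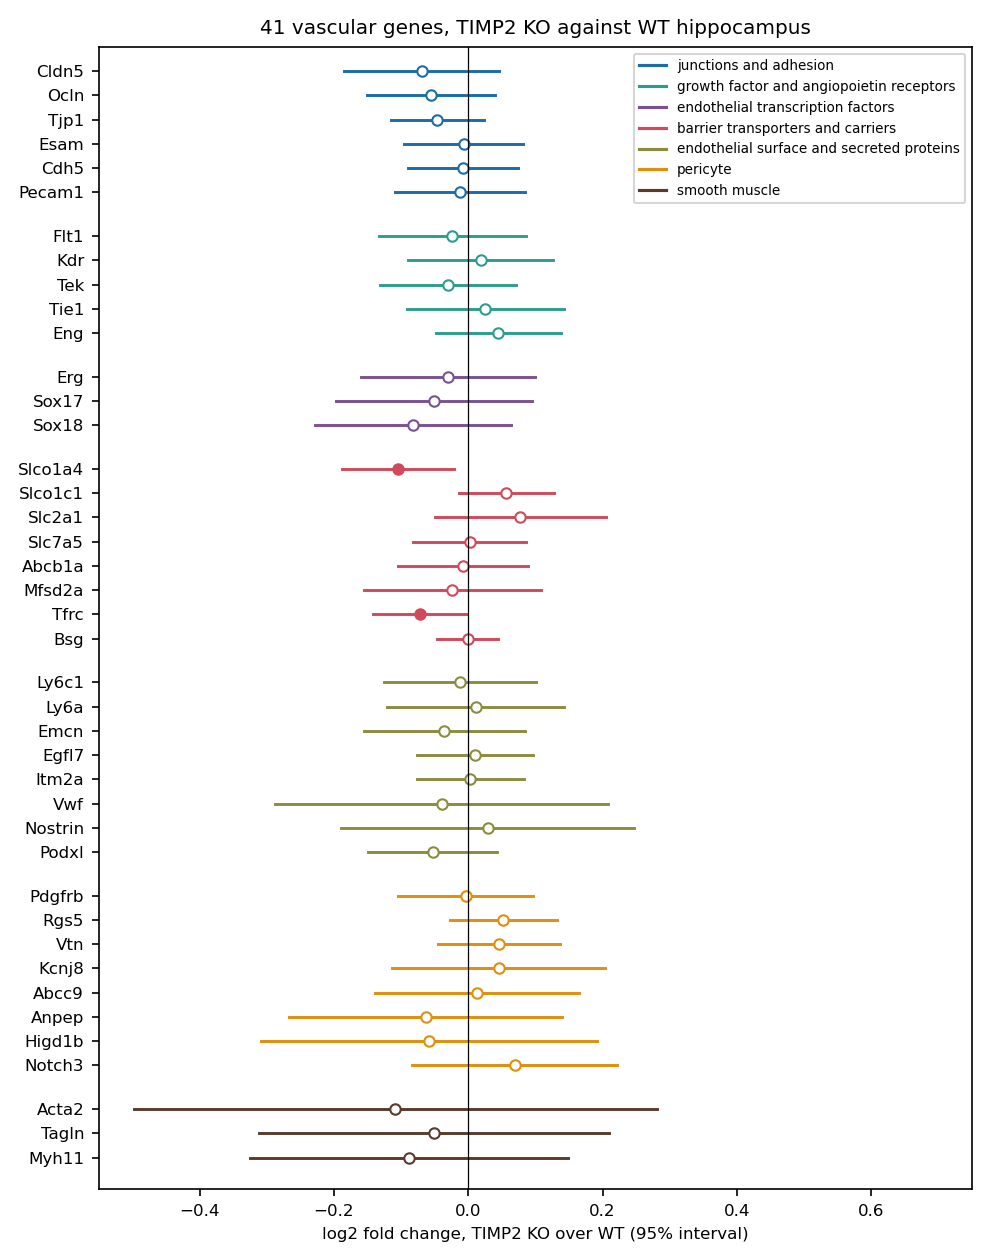
Log2 fold change of each of the 41 genes, TIMP2 KO (n = 13) over WT (n = 17), on the horizontal axis, with the genes by role on the vertical axis. Points are edgeR estimates, bars are 95% intervals and filled points had an unadjusted p under 0.05, which were Slco1a4 (-0.10) and Tfrc (-0.07). Acta2 has the widest bar (SE 0.190), and the bars of the other 39 genes cross 0.

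Slco1a4 encodes OATP1A4, an organic anion transporter of the capillary endothelium. Its level in the 13 KO mice was 33.9 CPM at the lowest, 38.6 at the median and 42.7 at the highest, and in the 17 WT mice 35.7, 40.7 and 49.0 CPM. The groups overlapped for most of their range, and 8 of 13 KO mice lay below the WT median. The mean was 38.5 ± 3.17 CPM (SD, n = 13) in KO and 41.39 ± 3.503 CPM (SD, n = 17) in WT, a log2 fold change of -0.10 (SE 0.041, edgeR p = 0.0161, adjusted p = 0.974), or -6.99% with a 95% interval from -12.2% to -1.41%. The estimate was -0.10 in females (SE 0.062) and -0.11 in males (SE 0.060), -0.12 without mice 18 and 24, and -0.09 without mouse 30. The close relatives Slco1a1, Slco1a5 and Slco1a6 had median counts of 0, 1 and 0, against 1132.5 for Slco1a4.

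Tfrc encodes the transferrin receptor, which carries iron across the endothelium and is also made by neurons and other cells. In KO mice its level ran from 102.2 CPM through a median of 108.7 to 123.6 CPM, and in WT mice from 98.8 through 116.7 to 130.9 CPM. The KO values lay inside the WT range, but 12 of 13 fell below the WT median. The log2 fold change was -0.07 (SE 0.035, edgeR p = 0.0459, adjusted p = 0.998). The call did not hold with sex as a covariate (edgeR p = 0.0591, adjusted p not under 0.05) without mouse 11 (edgeR p = 0.0647) or without mouse 30 (edgeR p = 0.0685), and the estimate was -0.01 with surrogate variables.

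None of the other 6 transporters and carriers passed the test. Slco1c1 (OATP1C1, the thyroid hormone transporter) averaged 53.2 ± 3.98 CPM in KO and 51.2 ± 3.45 CPM in WT, a log2 fold change of 0.06 (SE 0.035, edgeR p = 0.114). Without mouse 30 it was 0.07 and passed the unadjusted threshold (edgeR p = 0.0458). Slc2a1 averaged 69.8 ± 9.55 CPM in KO and 66.2 ± 8.00 CPM in WT, with 11 of 13 KO mice above the WT median and a log2 fold change of 0.08 (SE 0.062, edgeR p = 0.222). Without mice 18 and 24, the highest of their groups, its estimate was 0.06 (edgeR p = 0.0669). Slc7a5 (LAT1, the large neutral amino acid transporter) stood at 66.2 CPM in both genotypes, and Bsg at 416.7 ± 18.6 CPM in KO and 417.0 ± 15.9 CPM in WT. The interval of Bsg, from -3.14% to 3.11%, was the narrowest of the set. Abcb1a, the P-glycoprotein efflux pump, had 33.3 against 33.5 CPM. Its neighboring paralog Abcb1b had a median of 120 counts against 912.5 for Abcb1a, and reads shared between them may have been lost or split. Mfsd2a, the carrier of lysophosphatidylcholine that restrains transcytosis, had 14.0 against 14.3 CPM, an estimate of -0.02 that moved to -0.11 with sex and surrogate variables (edgeR p = 0.0297).

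None of the 6 junction and adhesion genes passed the test, and all 6 had estimates slightly below 0. Tjp1 (ZO-1, the scaffold beneath tight junctions) had the smallest p of the group. It ranged from 84.1 through 94.6 to 104.7 CPM in KO and from 86.3 through 97.3 to 109.1 CPM in WT, ranges that nearly coincide, with a log2 fold change of -0.05 (SE 0.034, edgeR p = 0.184). With sex and surrogate variables it was -0.07 and passed the unadjusted threshold (edgeR p = 0.00481). Cldn5 ran from 27.9 to 44.2 CPM in KO and from 32.2 to 45.1 CPM in WT (-0.07, SE 0.056, edgeR p = 0.227). Ocln (occludin), at 14.1 against 14.7 CPM, had an estimate of -0.06. Esam, Cdh5 (VE-cadherin) and Pecam1 (CD31), which hold endothelial cells to each other, had estimates of -0.01 each, and the widest of their intervals, that of Pecam1, ran from -7.28% to 6.09%.

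None of the 5 growth factor and angiopoietin receptors passed the test. Eng (endoglin, a co-receptor of the BMP9 and TGF-beta pathway) led the group with 19.0 to 23.6 CPM in KO, median 21.2, and 16.7 to 23.7 CPM in WT, median 20.7. The KO values all fell within the WT range, and the log2 fold change was 0.04 (SE 0.046, edgeR p = 0.335). The VEGF receptors Flt1 (61.2 against 62.2 CPM) and Kdr (14.8 against 14.6 CPM) and the angiopoietin receptors Tek (15.0 against 15.4 CPM) and Tie1 (9.88 against 9.73 CPM) had estimates from -0.03 to 0.03.

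Among the endothelial transcription factors, Sox18 ran from 5.48 through 8.70 to 10.1 CPM in KO and from 6.17 through 9.01 to 10.5 CPM in WT, a log2 fold change of -0.08 (SE 0.072, edgeR p = 0.264). The lowest KO value came from mouse 30, and the estimate without it was -0.05. Erg had an estimate of -0.03 and Sox17 of -0.05. An antisense transcript, Gm37587, covers 16.8% of the exons of Sox17 but had a median of 0 counts.

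The 8 surface and secreted proteins spread over a range of estimates from -0.05 to 0.03. Podxl (podocalyxin, of the luminal glycocalyx) had the smallest p, with 29.6 through 35.8 to 44.1 CPM in KO and 33.1 through 38.8 to 43.6 CPM in WT. Of the 13 KO mice, 10 lay below the WT median, and the log2 fold change was -0.05 (SE 0.047, edgeR p = 0.270). Emcn was estimated at -0.04, Ly6c1 at -0.01, Itm2a at 0.00, Ly6a and Egfl7 at 0.01 each, Nostrin (a trafficker of nitric oxide synthase) at 0.03 and Vwf at -0.04. Vwf and Nostrin had the least precise values of the group, with SEs of 0.121 and 0.108.

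Of the 8 pericyte genes, 5 had estimates above 0 and 3 below, and none passed the test. Rgs5 came closest, from 95.4 through 106.7 to 124.8 CPM in KO and from 86.6 through 105.8 to 119.2 CPM in WT (log2 fold change 0.05, SE 0.039, edgeR p = 0.193), and the groups overlapped over nearly the whole range. Pdgfrb, the receptor that pericytes need for recruitment, was at 19.8 CPM in both genotypes, with an interval from -6.96% to 6.95%. The channel pair of pericytes, Kcnj8 (Kir6.1) and Abcc9 (SUR2), was estimated at 0.05 and 0.01, Vtn at 0.05, Notch3 at 0.07, Anpep at -0.06 and Higd1b at -0.06. Anpep and Higd1b had the fewest reads, with means of 1.92 and 1.62 CPM, and Anpep moved to -0.20 with sex and surrogate variables (edgeR p = 0.0399).

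All 3 smooth muscle genes had estimates below 0, with wide intervals. Myh11, the smooth muscle myosin heavy chain, ran from 5.48 through 6.78 to 10.1 CPM in KO and from 5.09 through 7.46 to 11.3 CPM in WT, a log2 fold change of -0.09 (SE 0.116, edgeR p = 0.454). Acta2 (smooth muscle actin) was at 8.82 ± 3.88 CPM in KO and 9.49 ± 3.27 CPM in WT (-0.11, SE 0.190), and Tagln (transgelin, SM22) at 2.07 ± 0.526 CPM and 2.13 ± 0.591 CPM (-0.05, SE 0.128). With sex and 8 surrogate variables in the model, Acta2 moved to -0.35 (SE 0.124, edgeR p = 0.0112) and Myh11 to -0.24 (SE 0.0975, edgeR p = 0.0237). Under that model 6 members passed an unadjusted p under 0.05, all lower in KO (these 2 with Slco1a4, Tjp1, Mfsd2a and Anpep), and 6.83% of all genes did. None of the 6 passed after adjustment. The counts of Tagln are uncertain because an antisense gene, Gm48529, covers 62.4% of its exons and the strand setting of the counting was not given in the sources used here. The median count was 56 for Tagln and 21 for Gm48529.

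**Figure D2:**
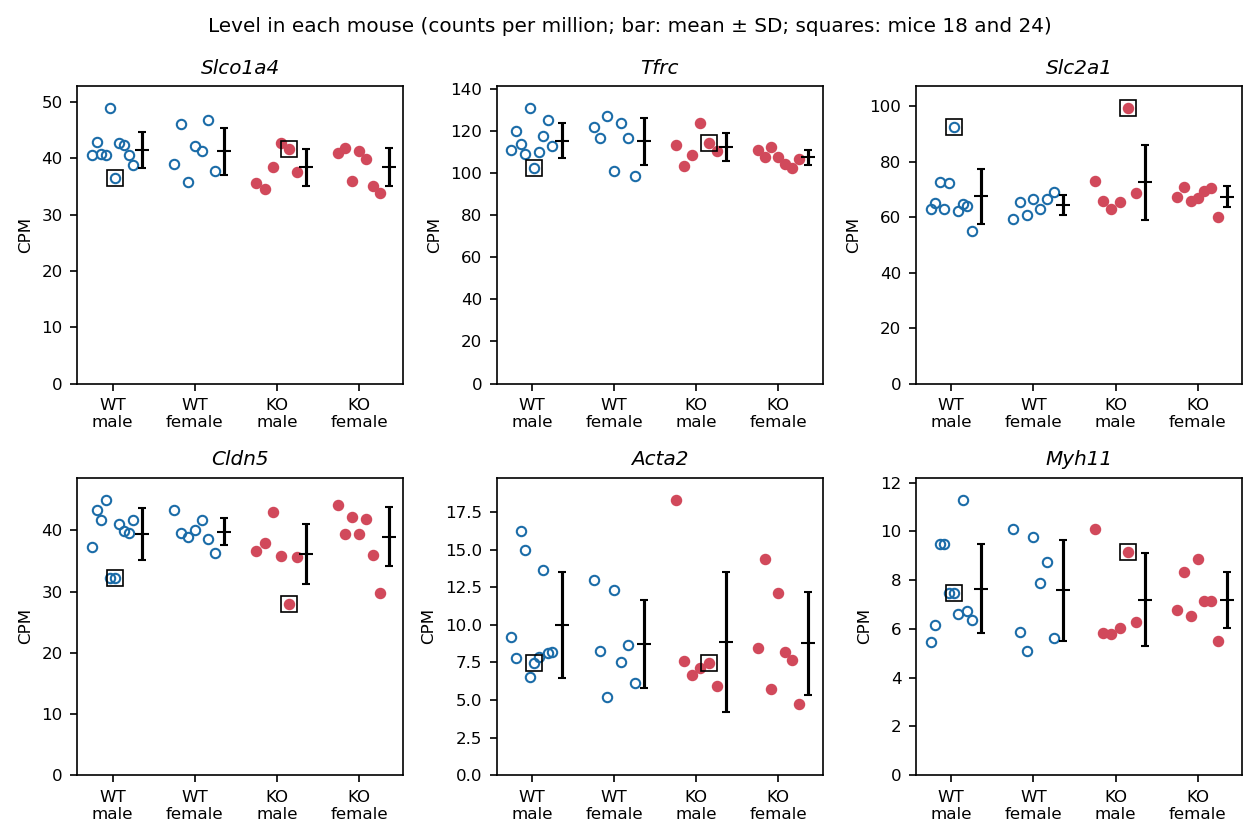
Level of 6 genes in each mouse, in CPM on axes that start at 0, by sex and genotype. Circles are mice (open for WT, filled for KO), the bars beside them are the mean ± SD, and squares mark mice 18 and 24, which are the highest for Slc2a1 (99.4 and 92.4 CPM). The smooth muscle genes Acta2 and Myh11 spread far more within each group than the 4 endothelial and barrier genes do.

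The wider pathway was followed in 6 lists with 146 further genes, of which 139 were tested. Of these, 3 (2.16%) passed an unadjusted p under 0.05 between KO and WT, all higher in KO, beside 4.88% of all genes tested and 2.38% higher in KO. These were Tcf7, a transcription factor of the Wnt pathway that induces the barrier (log2 fold change 0.15, edgeR p = 0.0360, adjusted p = 0.987), Apln, the ligand apelin (0.12, edgeR p = 0.0374, adjusted p = 0.998), and Vegfa, the main vascular growth factor (0.09, edgeR p = 0.0426, adjusted p = 0.998). None of these 3 calls held in every fit: Apln missed the threshold without mouse 11, without mouse 30 and without mice 18 and 24, Tcf7 without mouse 30 and without mice 18 and 24, and Vegfa without mouse 30. Of the Wnt and Norrin genes 1 of 19 passed, and of the VEGF, angiopoietin, Notch and PDGF partners 2 of 29. In the lists of other junction genes (14 tested), other transporters (18), other endothelial genes (30) and other pericyte and smooth muscle genes (29), 0 passed. Medians over these lists lay between -0.017 and 0.035 on the log2 scale.

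Markers of other cell types were read in the same fit. Among choroid plexus markers, 4 of 6 tested were higher in KO, led by Ttr (3.67), Clic6 (1.52) and Enpp2 (0.43) on the log2 scale, with a list median of 0.48. Without mouse 11 these values were 2.14, 0.88 and 0.21, the list median was 0.22, and 4 of 6 passed the unadjusted threshold. Without mouse 30, 5 of 6 passed it. The median summed level of this list was 163.8 CPM in KO and 158.4 CPM in WT. Of the 4 red blood cell genes tested 0 passed, with summed levels of 1.43 to 51.3 CPM in KO and 1.18 to 42.7 CPM in WT. No fibroblast (12 tested), microglia (9) or oligodendrocyte (8) marker passed. At the unadjusted threshold 1 of 10 astrocyte genes was higher in KO (Gfap, 0.09) and 1 of 10 neuron genes lower (Prox1, -0.16). The part of these cell types in the vascular values was not tested. The counts of members called were 2 without mice 18 and 24, 1 (Slco1a4) without mouse 11 and 2 (Slco1a4 and Slco1c1) without mouse 30.

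Females and males were compared over both genotypes (14 and 16 mice). With 9.48% of 17095 genes at an unadjusted p under 0.05 (5% higher and 4.48% lower in females), 3 of the 41 members passed it and 0 passed after adjustment (0.222% of genes did). Cdh5 was higher in females, at 12.0 ± 0.793 CPM (SD, n = 14) against 11.2 ± 0.659 CPM (SD, n = 16), a log2 difference of 0.10 (SE 0.037, edgeR p = 0.00790, adjusted p = 0.344). Mfsd2a was lower in females, at 13.5 ± 1.52 against 14.8 ± 2.00 CPM (-0.13, SE 0.061, edgeR p = 0.0402), and so was Flt1, at 59.3 ± 4.87 against 64.0 ± 6.93 CPM (-0.11, SE 0.050, edgeR p = 0.0410). Without mice 18 and 24, both males, Mfsd2a and Flt1 no longer passed, while Cdh5 did with 0.12, and Abcb1a (0.12) and Tjp1 (0.06) passed in their place. Mfsd2a and Flt1 also missed the threshold without mouse 11 and without mouse 30, both females, while Cdh5 passed it in each case (0.10). Abcb1a passed in both (0.10), and Tek (0.10) without mouse 30. Of the 139 other vascular genes, 11 were higher and 5 lower in females at this threshold. The sphingosine receptor S1pr1 had the smallest p of these (0.12, SE 0.033, edgeR p = 0.000639, adjusted p = 0.126). Several of these calls were lost in the repeats. Axin2, Vegfa and Jam2 missed the threshold without mice 18 and 24. Jam2, Cald1 and Casq2 missed it without mouse 11, and Car4, Palmd and Ets2 without mouse 30. In the fit of all mice 5 of 10 neuron markers were lower in females. Higher in females were 3 of 10 astrocyte, 2 of 12 fibroblast and 2 of 10 microglia markers. The part of these cell types in the vascular values was not tested. Of these markers, Syt1 of neurons and Col3a1 of fibroblasts missed the threshold without mice 18 and 24 and without mouse 11.

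The effect of genotype differed by sex for 1 member at an unadjusted p under 0.05, in a background of 2.53% of genes (1.35% more positive and 1.19% more negative in females), and for 0 after adjustment. This was Eng. WT females had 16.7 to 21.5 CPM, median 19.2, and KO females 19.6 to 23.6 CPM, median 21.2, while WT males had 18.0 to 23.7 CPM, median 21.6, and KO males 19.0 to 23.1 CPM, median 20.9. The 7 WT females were thus the low group. The log2 fold change was 0.15 in females and -0.03 in males, a difference of 0.18 (SE 0.086, edgeR p = 0.0406, adjusted p = 1.00). It was 0.18 without mouse 11, and 0.20 both without mouse 30 and without mice 18 and 24. For Vtn the values were 0.13 in females and -0.03 in males (difference 0.15, SE 0.0886, edgeR p = 0.0943). Of the 139 other vascular genes, 4 had a more positive and 0 a more negative change in females at this threshold: the tight junction genes Marveld2 (0.67) and Cldn1 (0.87), the ligand Bmp6 (0.47) and the matrix protein Mgp (0.47), each with an adjusted p of 1.00 by edgeR. One of the 7 KO females was mouse 11. Without it Bmp6 (0.34) and Mgp (0.32) missed the threshold, as they did without mice 18 and 24, while Marveld2 (0.63) and Cldn1 (0.67) passed it. With the endothelial mean defined below, Marveld2 had r = -0.34 and Cldn1 0.05. With the smooth muscle mean, also defined below, Marveld2 had r = -0.13 and Cldn1 0.50. In the fit of all mice, 2 of 12 fibroblast markers were also more positive in females, Col1a2 (0.58) and Lum (0.43), with a list median of 0.33. Lum missed the threshold without mice 18 and 24. Of 8 choroid plexus markers 0 passed, with a list median of 1.14. The part of these cell types in the values above was not tested.

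The members varied between mice to very different degrees. The coefficient of variation over the 30 mice was 4.04% for Bsg, 6.91% for Tjp1 and 7.12% for Cdh5. The median was 9.87% over the 12 genes of the endothelial mean defined below, 14.8% over the 8 pericyte genes and 26.4% over the 3 smooth muscle genes, beside 8.35% over all genes tested. Acta2 varied most, with 38.1%, a 3.90-fold span from 4.71 to 18.4 CPM, and 96.8% of genes tested had a lower value. Counting error alone would give 6.22% for Acta2, 13.1% for Tagln and 6.94% for Myh11. For Emcn, counting error alone would give 8.83%, beside a whole spread of 10.5%. Among pericyte genes it would give 13.7% for Anpep, 14.9% for Higd1b and 10.2% for Kcnj8, beside whole spreads of 18.8%, 24.3% and 14.6%. For Rgs5 it would give 1.85%, beside 7.87%. The widest endothelial genes were Vwf (23.3%) and Nostrin (22.7%), and counting error alone would give 12.0% for Nostrin.

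**Figure D3:**
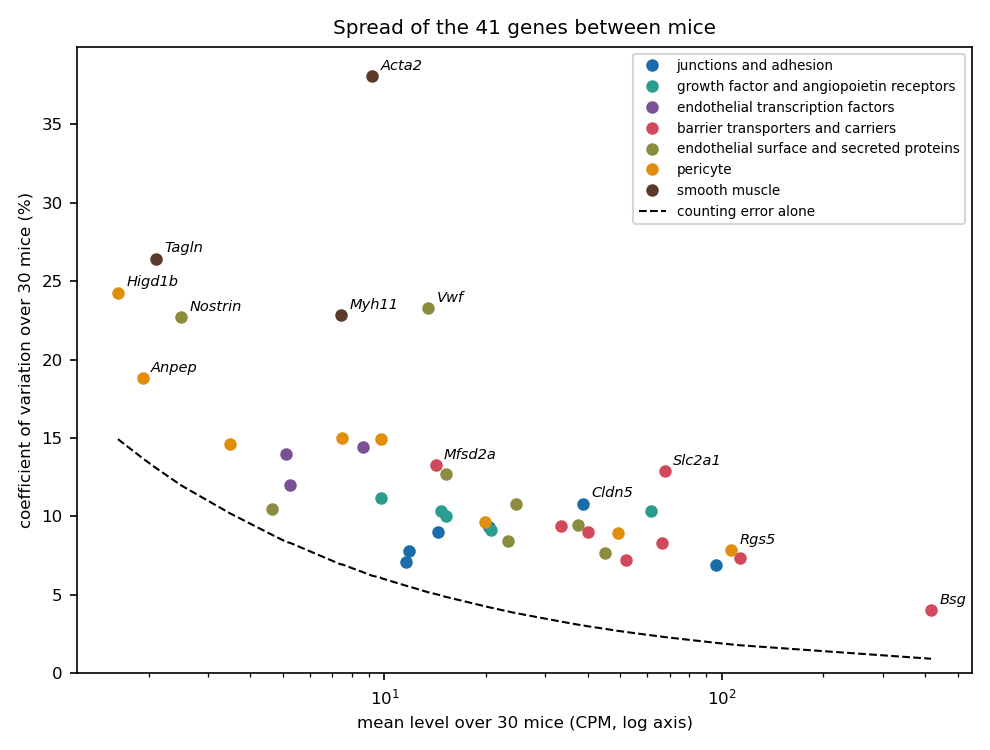
Coefficient of variation of each gene over all 30 mice, in percent, against its mean level in CPM on a log axis, colored by role. The dashed line is the variation that counting error alone would give. Acta2 (38.1%), Myh11 (22.8%) and Vwf (23.3%) lie far above it, while Bsg has the lowest variation at 4.04%. Tagln (26.4%) and Higd1b (24.3%) are high too, but counting error alone would give 13.1% and 14.9% for them.

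To ask whether the genes of a cell type rose and fell together, log2 CPM values were averaged in each mouse over 12 endothelial genes (Cldn5, Flt1, Tie1, Cdh5, Esam, Egfl7, Erg, Emcn, Ly6c1, Slco1a4, Abcb1a and Itm2a), the 8 pericyte genes and the 3 smooth muscle genes. All correlations are over the same 30 libraries, share their depth and normalization, and are given as descriptions. Over the 820 pairs of members the median Pearson r was 0.21, and 82.4% of pairs were above 0. Over all pairs of the 16486 genes tested the median was -0.002, with 49.7% above 0. Pairs of smooth muscle genes had a median of 0.77, pairs of pericyte genes 0.25 and pairs of the 12 endothelial genes 0.22. After removal of the means of the 4 groups of sex and genotype, the medians were 0.78, 0.26 and 0.24.

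**Figure D4:**
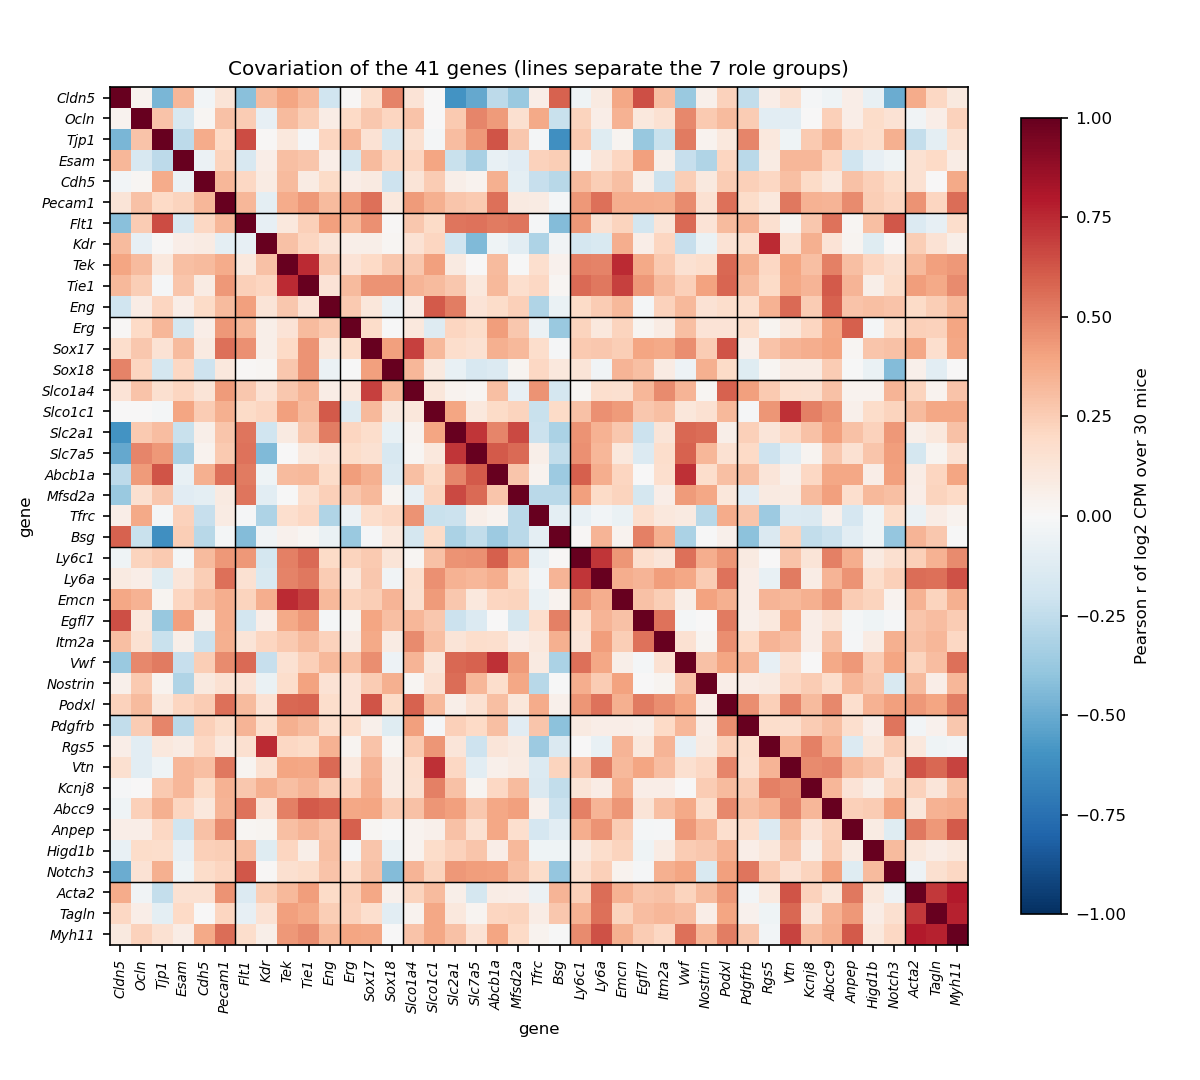
Pearson r of log2 CPM between each pair of the 41 genes over the 30 mice, as color from -1 (blue) to 1 (red), with genes grouped by role. The 3 smooth muscle genes form the deepest red block (median r 0.77). The deepest blue cells are Tjp1 with Bsg (-0.61) and Cldn5 with Slc2a1 (-0.60).

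The endothelial mean moved little, from 4.05 to 4.38 on the log2 CPM scale in KO and from 4.13 to 4.39 in WT, and the lowest mouse in KO was mouse 30. Its spread was 1.26-fold in KO and 1.20-fold in WT, against 2.502-fold and 2.26-fold for the smooth muscle mean, which ran from 1.79 to 3.11 in KO and from 1.85 to 3.03 in WT. High and low smooth muscle values occurred in every group of sex and genotype. The endothelial and pericyte means had r = 0.59 and rho = 0.55 (n = 30), with 0.61 within KO, 0.64 within WT and 0.56 without the 2 mice farthest from the median. The endothelial and smooth muscle means had r = 0.50 and rho = 0.52, but 0.29 within KO and 0.68 within WT, and 0.38 without mice 2 and 30. The pericyte and smooth muscle means had r = 0.45 and rho = 0.57.

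The members that followed the mean of the other endothelial genes most closely were Tie1 (r = 0.73), Tek (0.72), Podxl (0.69), Pecam1 (0.69), Sox17 (0.63) and Emcn (0.62). Abcc9, a pericyte gene, followed it as well (0.63). Lower values were found in several roles. Among junction and transporter genes, Cldn5 had 0.21, Cdh5 0.22, Slc2a1 0.24, Esam 0.17, Tfrc 0.13 and Bsg 0.01, but Abcb1a had 0.46, Slco1a4 0.41 and Slco1c1 0.39. The receptors Kdr, Flt1 and Eng had 0.20, 0.27 and 0.29, and the transcription factor Erg 0.29. Tek and Tie1, the angiopoietin receptor and its orphan partner, had r = 0.75 with each other, Tek and Emcn 0.74, and Ly6a and Ly6c1, members of one gene cluster, 0.72. The VEGF receptors Flt1 and Kdr had -0.08, and the 2 organic anion transporters Slco1a4 and Slco1c1 had 0.12. The tie of Kcnj8 to its channel partner Abcc9 was 0.33. Of all pairs, Acta2 and Myh11 had the highest value (0.80) and Tjp1 and Bsg the lowest (-0.61). Vtn, listed as a pericyte gene, followed the smooth muscle mean (0.68) more than the other pericyte genes (0.56), and so did Anpep (0.57 against 0.16).

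Mice 18 and 24 were singled out after their values were seen. In both, 269 of all 16486 genes tested lay above all 28 other mice and 93 lay below, in all 2.2% of genes. Of the 41 members 0 lay below and 5 above: Slc2a1 (99.4 and 92.4 CPM, others 55.1 to 73.0), Slc7a5 (81.2 and 81.3, others 58.7 to 72.7), Flt1 (79.1 and 71.6, others 51.0 to 69.7), Mfsd2a (16.6 and 19.9, others 11.5 to 16.4) and Nostrin (3.71 and 4.43, others 1.57 to 3.48). Vwf was high in both, at 20.3 and 18.9 CPM, with 1 WT male at 20.8 CPM. Cldn5 was lowest of all mice in mouse 18 (27.9 CPM) and low in mouse 24 (32.3 CPM), although mice 30 (29.8 CPM) and 22 (32.2 CPM) were low as well. Some genes outside the set stood apart in the same mice, and others did not. Icam1, an adhesion molecule that inflamed endothelium raises, stood at 13.1 and 8.93 CPM against 1.03 to 3.41 CPM in the others. Vcam1, its partner in leukocyte adhesion, stood at 53.4 and 51.5 CPM against 26.1 to 34.0 CPM. Sgk1 (104.3 and 104.0 CPM, others 50.9 to 76.4) and Tsc22d3 (66.0 and 68.4 CPM, others 35.6 to 59.1), both known as targets of glucocorticoids, were high too. So was Nfkbia (24.9 and 26.2 CPM, others 14.6 to 21.8). Vegfa (45.2 and 44.8 CPM, others 34.2 to 46.6) lay within the range of the other mice. The same held for Plvap (8.64 and 8.02 CPM, others 6.77 to 9.82) and Angpt2 (1.06 and 1.20 CPM, others 0.415 to 1.30). The 2 mice belong to different genotypes and to 1 sex, and no label sets them apart from the rest.

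The negative relation of Slc2a1 to Cldn5 rested largely on these mice, with r = -0.60 and rho = -0.43 over 30 mice and r = -0.22 without them. The relation of Slc2a1 to Slc7a5 fell from 0.72 to 0.33 and to Mfsd2a from 0.66 to 0.49. Relations that did not rest on them were those of Abcb1a to Vwf (0.73, and 0.69 without them), Slco1c1 to Vtn (0.73 in both cases), Kdr to Rgs5 (0.74 in both cases) and the pairs of smooth muscle genes.

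**Figure D5:**
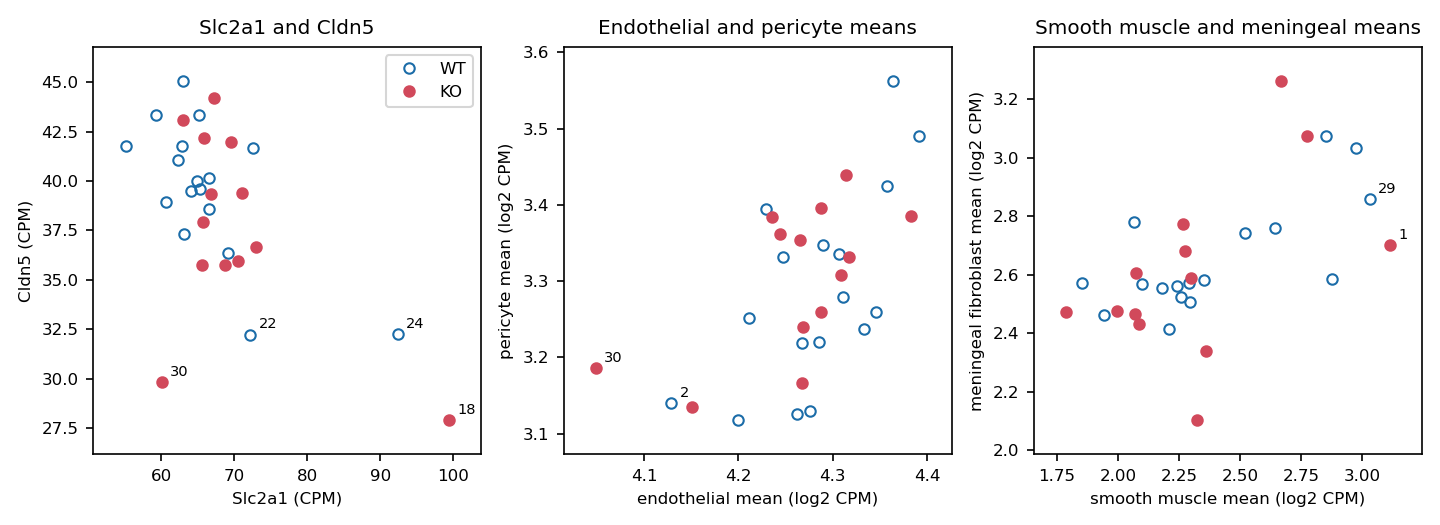
Pairs of measures in the 30 mice, with WT as open and KO as filled circles and single mice numbered: Slc2a1 against Cldn5 in CPM, and means of log2 CPM for endothelial against pericyte genes and for smooth muscle against meningeal fibroblast genes. Mice 18 and 24 sit alone at the right of the first panel (r = -0.60, or -0.22 without them), and the other panels show r = 0.59 and r = 0.60.

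Outside the set, the 10 genes closest to each mean were sought over all other genes tested, on values with the means of the 4 groups removed. For smooth muscle they were Myl9 (r = 0.91), the regulatory light chain of smooth muscle myosin, Mgp (0.86), Cytl1 (0.80), Slc6a20a (0.80), Cped1 (0.79), Lmod1 (0.74), Ptgds (0.73), Fmod (0.73), Eln (0.72) and Mrvi1 (0.71). Lmod1 and Mrvi1 are contractile or signaling proteins of smooth muscle, Eln is elastin of the arterial wall, and Ptgds, Slc6a20a and Fmod are known from the meninges. The smooth muscle mean and the mean of 12 meningeal and perivascular fibroblast markers had r = 0.60 (rho = 0.55, n = 30), with 0.52 within KO and 0.71 within WT and 0.62 without mice 1 and 29. Whether the amount of attached meninges or large vessels differed between dissections was not tested.

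For the endothelial mean the closest were Cox4i2 (0.74), Il7r (0.71), Mir7052 (0.70), Cav1 (0.70), Mcam (0.69), Grrp1 (0.68), Pmaip1 (0.68), Srgn (0.68), C030029H02Rik (0.66) and Clic4 (0.65). Cav1 encodes caveolin-1 of endothelial vesicles, and Cox4i2 and Mcam are genes of pericytes and vessel walls. Il7r, Mir7052 and Cox4i2 had median levels under 1 CPM, and Il7r fell to 0.40 and Mir7052 to 0.38 without mice 2 and 30. For the pericyte mean the genes given here were Pbxip1 (0.76), Acsbg1 (0.75), Slc9a3r1 (0.75), Aldoc (0.72), Klhdc7a (0.72), Gm3086 (0.71), Sema3c (0.70), Clu (0.68) and Gpr146 (0.67). Aldoc, Acsbg1 and Clu are abundant genes of astrocytes, whose endfeet cover the vessels. The pericyte mean had r = 0.56 (rho = 0.48) with the mean of 10 astrocyte markers, 0.58 within each genotype and 0.47 without mice 7 and 23. The endothelial mean had 0.30 with the same markers and 0.53 without mice 2 and 30, above the pericyte value with its own 2 mice left out. The smooth muscle mean had -0.06, and 0.14 without mice 1 and 29. Positive values were not limited to astrocyte markers. With oligodendrocyte markers the endothelial mean had r = 0.42 (0.31 without mice 2 and 30), the pericyte mean 0.32 and the smooth muscle mean 0.27. With microglia markers these means had, in the same order, 0.25, 0.36 and -0.03, and with neuron markers 0.04, 0.01 and -0.15. With red blood cell markers the endothelial mean had r = 0.25, but 0.62 within KO, -0.01 within WT and 0.09 without mice 2 and 30. The pericyte mean had -0.19 with them, 0.29 within KO and -0.45 within WT, and the smooth muscle mean -0.12.

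Across the further lists, the other endothelial genes followed the endothelial mean with a median r of 0.36, and 26 of 30 were above 0, beside a median of -0.0043 over all genes tested. Highest among them after Cav1 were Cd93 and Cavin2. The other junction genes (0.09), other transporters (0.12), Wnt and Norrin genes (0.18) and growth factor partners (0.10), many of which other cell types also make, followed it less. The other pericyte and smooth muscle genes had medians of 0.31 with the pericyte mean and 0.38 with the smooth muscle mean.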

How the data were processed

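The authors trimmed the reads with Trimmomatic 0.36, aligned them to GRCm38 with STAR 2.5.2b, counted them with featureCounts (Subread 1.5.2; tools per the submitters' processing notes) and deposited raw counts per gene, not normalized, with one column per mouse. The annotation release and strand setting are not given in the sources used here. All 30 columns were matched to a mouse. Groups came from the sample labels.

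Here counts were scaled by TMM factors (0.976 to 1.02), filtered with filterByExpr and tested with edgeR 4.0.16 (quasi-likelihood, robust, no covariates) in R 4.3.3, on the whole table, with Benjamini-Hochberg adjustment. Sex was tested with genotype as a covariate, and the interaction of sex and genotype in a model of the 4 groups. CPM is TMM-scaled, and log2 CPM used a prior count of 2. Intervals are 95%. Positions and exon lengths came from GENCODE M21. Counting error is 1 over the square root of the mean count. Tests were tried on simulated data. Alternatives used DESeq2 1.42.0, limma 3.58.1 and sva 3.50.0. Each mouse is one sample, so p-values cover the spread between mice. The common biological coefficient of variation was 7.52%.

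The members and all gene lists were chosen with earlier results of these data known. All members are named, with full statistics for those at an unadjusted p under 0.05 and the smallest p of each role. From other lists up to 3 genes with the smallest p are named, with the 10 genes closest to each mean. One of those genes, for the pericyte mean, is not reported here. Mice 18 and 24, the genes that moved in them, and the pairs of members described were picked after their values were seen. For its co-expression network, the paper adjusted expression for the date of isolation or harvest, which it names as a significant source of variation. Harvest dates and dissection batches are not in the labels and could not be fitted, so no test or correlation here accounts for them by date.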

Additional observations from a re-analysis of the deposited data

Results flagged for a closer look

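In each of the 4 groups of sex and genotype, the highest and lowest mouse of each member was compared with the rest of its group by Dixon's ratio on log2 CPM. This made 164 groups, of which 10 held a mouse that stood apart, and chance alone would give about 8.2. The values are therefore listed without weight. Mouse 30 (KO female) was the lowest of its group for Ocln (3.55, others from 3.83 to 3.92), Pecam1 (4.09, others from 4.30), Tie1 (2.80, others from 3.34) and Itm2a (5.28, others from 5.47), all on the log2 CPM scale. Mouse 18 (KO male) was the highest of its group for Cdh5 (3.65, others up to 3.49), Slc2a1 (6.64, others up to 6.19) and Nostrin (1.92, others up to 1.33). Mouse 24 (WT male) was the highest of its group for Slc2a1 (6.53, others up to 6.18). Mouse 16 (WT female) was the lowest for Ly6a (3.71, others from 3.93). Mouse 1 (KO male) was the highest for Acta2 (4.20, others up to 2.94).

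The KO against WT change of Eng differed between the sexes, by 0.18 on the log2 scale (females minus males), in the test of the interaction (edgeR p = 0.0406, adjusted p = 1.00).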

How the results depend on the processing

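The count of members at an unadjusted p under 0.05 between KO and WT was 2. It was 1 with no filter on low counts, with sex as a covariate, in males alone and without mouse 11, and 6 with sex and surrogate variables. In the other 9 of 14 settings it was 2, but in females alone the 2 genes were Eng (0.15) and Vtn (0.13) in place of Slco1a4 and Tfrc, and without mouse 30 Slco1c1 (0.07) stood in place of Tfrc. Slco1a4 kept its direction in all 14 and failed the threshold only in females alone (-0.10). The adjusted count was 0 in every setting. Median log2 fold changes of the members lay between -0.056 (surrogate variables) and 0.0046. Of 574 member values under alternatives, 16 changed their side of the threshold. Another 50 changed sign while uncalled in both. The 82 levels recomputed with RLE factors stayed within 1 SD. The adjusted sex count (0) and the interaction count (1) were the same under each alternative run for them. The r between endothelial and smooth muscle means fell from 0.50 to 0.38 without mice 2 and 30. The cause of these changes was not tested. Leaving out mice 11, 18, 24 and 30 and non-robust edgeR were chosen as alternatives after seeing the data. No paired analysis was possible because mouse numbers are unique to each mouse and litters are not in the labels. No test here accounts for litter.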
